A study of Mus musculus with 41 samples.

Results

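The genes described here encode the nuclear subunits of respiratory complexes II to V, the part of oxidative phosphorylation that follows complex I. They were taken as every gene whose symbol on the array names a succinate dehydrogenase subunit (Sdha to Sdhd), a cytochrome bc1 subunit (Uqcr genes and Cyc1), a cytochrome c oxidase subunit of families 4 to 8 (Cox genes) or an ATP synthase subunit (Atp5 genes). Each gene was represented by its brightest probe set, a group of short oligonucleotides on the array that report 1 transcript. This gave 47 of the 18193 genes with a symbol of their own, 4 in complex II, 9 in complex III, 17 in complex IV and 17 in complex V. Hippocampus RNA came from 41 males of C57BL/6J, an inbred strain, with 1 Affymetrix array per mouse. Behavioural testing began at 10 weeks of age and ended with passive avoidance at 37 to 38 weeks, and hippocampi were collected 1 month later. The groups were 5 mice that both of the study's ranking systems placed as high in cognition, 12 placed as medium, 8 placed as low, 14 with inconsistent ranks and 2 with incomplete behavioural data. All groups share strain, sex, tissue and test battery, none carries an allele or a drug, and the classes are ranks within this cohort. The second mouse with inconsistent ranks is also described as consistently medium, and was kept with the inconsistent mice.

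Electrons from succinate enter the chain at complex II, which is also an enzyme of the citric acid cycle, and reach complex III through ubiquinone. Complex III passes them to cytochrome c, complex IV hands them to oxygen, and the proton gradient built up by complexes III and IV together with complex I drives ATP synthesis in complex V. Neurons depend on this pathway for the ATP that ion pumps and synaptic transmission use. All subunits of complex II and most subunits of the others are encoded in the nucleus, and several complex IV subunits exist as variants used in particular tissues, such as heart, muscle or testis.

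Promoter sequences are shown first, because the members fell into a large set of bright, steady genes and a small set of dim ones, described below. The dim ones were tissue variants except for Cox7c. RefSeq promoter windows (build GRCm38.p6) were at hand for 35 of the 47 genes, with 38 windows in all. Each ran from 250 bases before the annotated start to 50 bases after it, and was searched on both strands. The sequences below are the 250 bases before the start, printed 5′ to 3′ on the gene's strand, which is the minus strand for all of them. Capitals mark complete matches to the motif of nuclear respiratory factor 1 (NRF1: GCGCA and GCGC with any 1 base between them), a regulator of many mitochondrial genes, or to the core of the ETS family (CCGGAAG), which includes the GABP factor. The YY1 motif (AAGATGG followed directly by CGG) and the TATA box (TATAAA) were searched as well and had no match inside these stretches. Cox8b and Cox6b2 are shown as the variants that differed most between mice, Cox8a and Cox6b1 as their widely used counterparts, Sdhd and Uqcr10 as the members with the smallest p in the class comparisons, and Sdha as the member with the most NRF1 matches. They lie at chr7:140900447-140900696, chr7:4753095-4753344, chr19:7217617-7217866, chr7:30626115-30626364, chr9:50603850-50604099, chr11:4704345-4704594 and chr13:74350241-74350490.
Cox8b: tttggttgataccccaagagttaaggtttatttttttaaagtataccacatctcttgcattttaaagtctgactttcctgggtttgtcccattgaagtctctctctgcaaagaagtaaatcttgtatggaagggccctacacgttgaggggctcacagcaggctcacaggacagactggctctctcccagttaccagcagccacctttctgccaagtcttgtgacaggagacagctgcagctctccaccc
Cox6b2: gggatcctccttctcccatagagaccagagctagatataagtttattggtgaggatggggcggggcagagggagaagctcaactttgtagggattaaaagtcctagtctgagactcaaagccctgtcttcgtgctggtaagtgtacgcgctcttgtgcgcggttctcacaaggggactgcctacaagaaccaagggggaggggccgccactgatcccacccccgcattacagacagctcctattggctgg
Cox8a: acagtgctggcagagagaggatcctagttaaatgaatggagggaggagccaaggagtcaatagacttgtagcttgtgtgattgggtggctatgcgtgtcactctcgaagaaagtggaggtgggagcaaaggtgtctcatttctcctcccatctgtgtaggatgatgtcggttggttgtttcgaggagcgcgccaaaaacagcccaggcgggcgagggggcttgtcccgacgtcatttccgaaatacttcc
Cox6b1: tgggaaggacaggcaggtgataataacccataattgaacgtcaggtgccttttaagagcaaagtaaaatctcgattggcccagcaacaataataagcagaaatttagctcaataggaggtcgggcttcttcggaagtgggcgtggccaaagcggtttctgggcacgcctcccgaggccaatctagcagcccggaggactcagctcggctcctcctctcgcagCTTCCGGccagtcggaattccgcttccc
Sdhd: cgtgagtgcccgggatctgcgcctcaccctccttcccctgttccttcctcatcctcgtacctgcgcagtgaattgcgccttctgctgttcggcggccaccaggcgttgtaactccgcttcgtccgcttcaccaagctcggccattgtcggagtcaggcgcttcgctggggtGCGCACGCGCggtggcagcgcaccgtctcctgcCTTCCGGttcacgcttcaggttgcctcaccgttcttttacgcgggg
Uqcr10: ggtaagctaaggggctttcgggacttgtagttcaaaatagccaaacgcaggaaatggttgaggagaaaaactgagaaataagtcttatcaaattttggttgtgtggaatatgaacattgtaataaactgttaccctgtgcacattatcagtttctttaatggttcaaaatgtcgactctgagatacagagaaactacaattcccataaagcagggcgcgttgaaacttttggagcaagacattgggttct
Sdha: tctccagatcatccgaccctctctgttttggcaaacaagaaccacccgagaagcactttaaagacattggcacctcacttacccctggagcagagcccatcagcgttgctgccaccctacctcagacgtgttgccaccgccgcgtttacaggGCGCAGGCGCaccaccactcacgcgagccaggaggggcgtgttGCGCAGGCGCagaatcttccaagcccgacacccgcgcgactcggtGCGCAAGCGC

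The NRF1 motif was found in 26.3% of the 38 member windows, against 4.60% of the 32851 windows of 27025 genes in the table. The ETS core was found in 34.2% of member windows and 8.86% of all windows. The same shares were 2.63% and 0.852% for YY1, 52.6% and 37.4% for the CCAAT box (CCAAT), and 10.5% and 13.6% for the TATA box. Member windows were also richer in CpG, with a median of 19 CpG dinucleotides against 7 in all windows, and both the NRF1 and the ETS motif contain CpG. Sdha held 3 NRF1 matches and Sdhd held 1 match to each motif. Uqcr10 held neither. Windows were given for 4 of the tissue variants, Cox8b, Cox6b2, Cox7a1 and Cox7b2, and none held an NRF1 or ETS match, with a median of 8.5 CpG. Cox8b had 2 CpG in its whole window and Cox8a had 19, along with 2 ETS matches that lie partly or wholly past the printed stretch. A match is a description of the letters and not evidence of binding.

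Deposited intensities were brought to a common distribution by quantile normalization, and log2(intensity + 16) was taken, the scale on which all levels and differences below are given. The offset makes differences of dim genes smaller than they are. Probe sets in the brighter part of the array, at or above the median, were tested, 22519 in all. Of the 47 members, 43 were among them. Cox4i2, Cox7a1, Cox7b2 and Cox8b were too dim. Different probe sets bind with different strength, so their levels are not compared with each other.

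The arrays held hippocampal neuron markers in summed level, but not every such marker was bright on every array. Fibcd1 fell to 5.72 at its lowest, against a median of 8.14 over all arrays. Prox1 fell to 5.59, against a median of 7.32. The arrays with these lowest levels are not named here. Summed levels of 10 hippocampal neuron markers ran from 103.2 to 104.3 among high mice, from 100.8 to 104.9 among medium mice and from 103.5 to 106.2 among low mice. Array medians before normalization ran from 26.0 to 47.0 in high, from 29.6 to 53.4 in medium and from 22.4 to 47.2 in low mice, with group medians of 33.3, 43.7 and 42.0. High arrays were thus often dimmer, and the part of this in the comparisons below was not tested beyond the other normalizations given at the end. Choroid plexus markers were bright on 11 arrays, which include 4 medium, 3 low and no high arrays. The medium 9 array had a summed striatum marker level of 69.8, above the 59.2 to 62.4 of the others, and low 5 was the dimmest array. The labels name no batch. Arrays were clustered by control transcripts added to each sample, with the number of clusters set at 3. The clusters, called batches here, held 7, 10 and 24 arrays, and the first held no high array. In whole tissue, fewer cells of a type and less RNA per cell cannot be told apart.

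**Figure D1:**
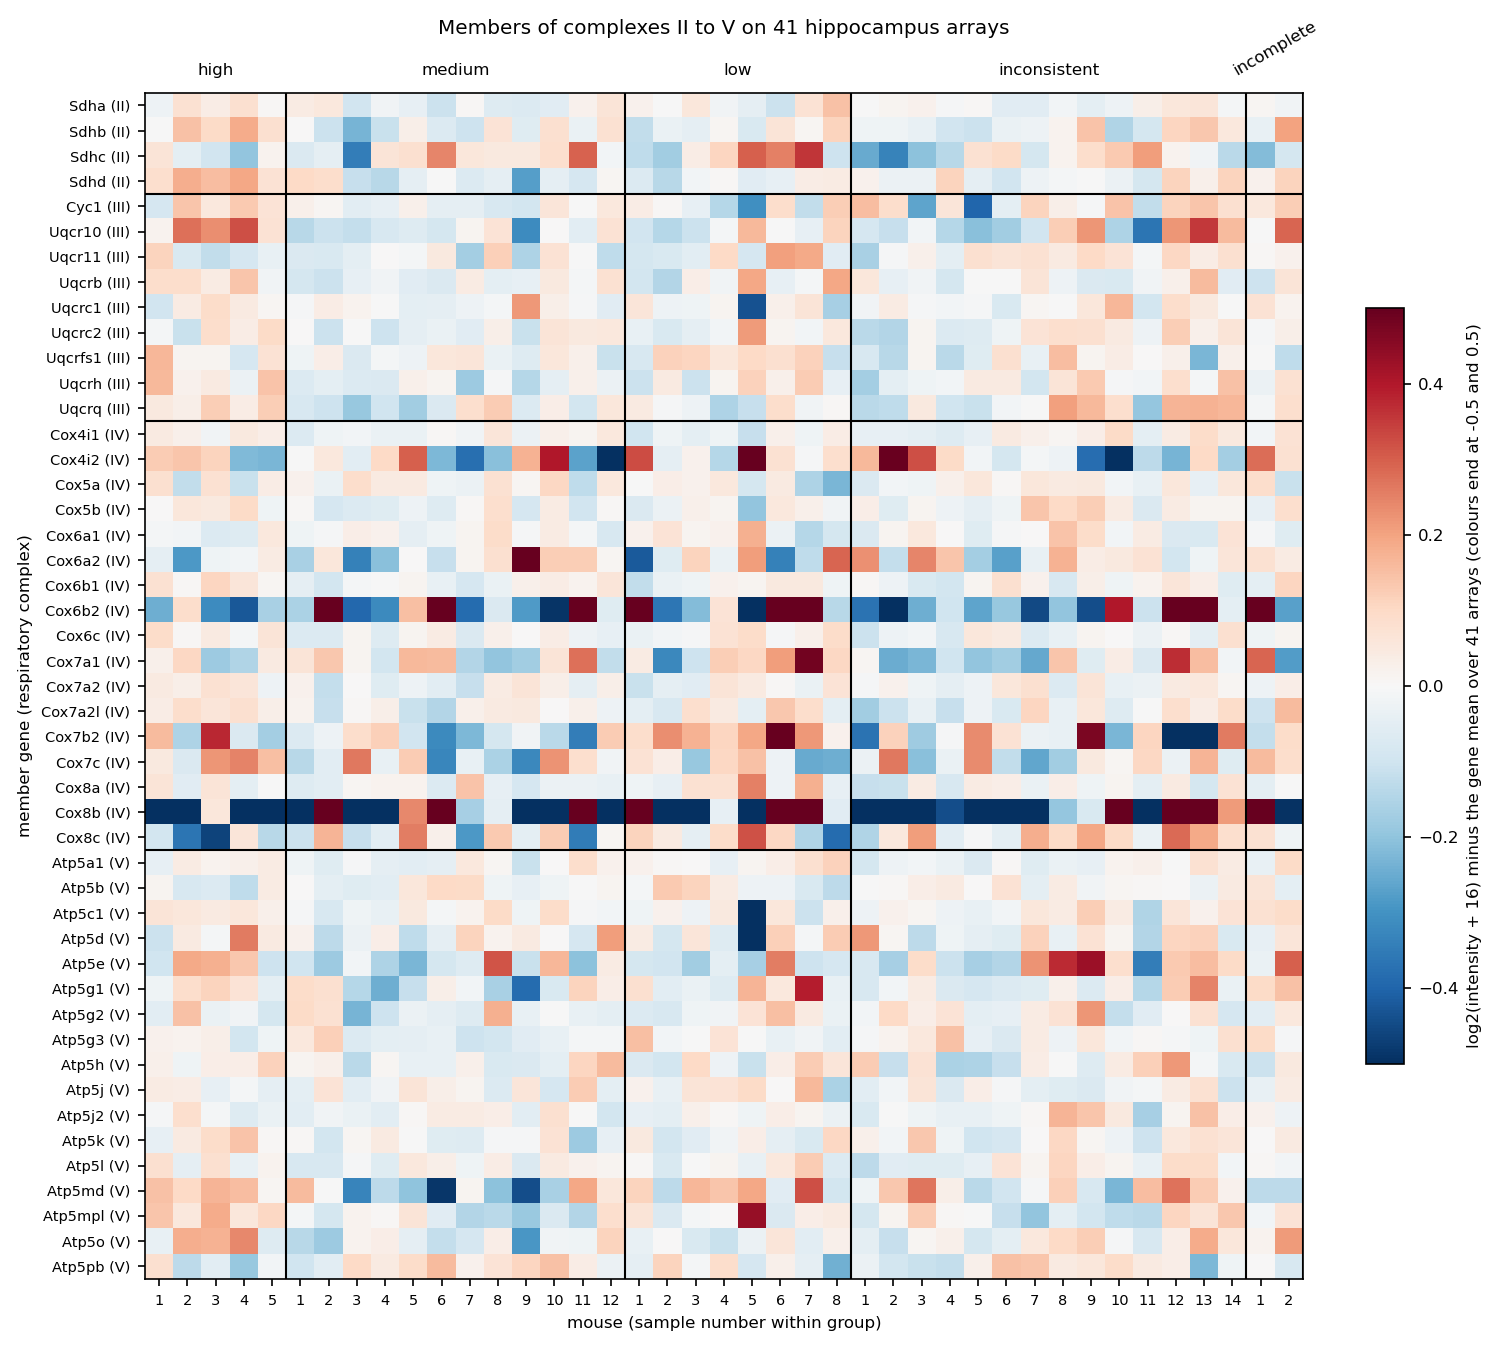
Each row is a member gene with its complex, each column a mouse, and colour is the level minus the gene's mean over 41 arrays, on the log2(intensity + 16) scale, with colours ending at -0.5 and 0.5. Most rows are pale, Cox8b and Cox6b2 are strongly coloured in every group, and the low 5 column has dark cells at Atp5c1, Atp5d and Uqcrc1.

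Most subunit genes varied little between mice. The median SD over the 41 arrays was 0.088 for the 43 tested members, against 0.165 for all tested probe sets. Bright probe sets vary less in general, and 39 members lay in the brightest of 4 equal brightness classes, where their median SD was 0.084 against 0.115 for all probe sets of that class. The steadiest were Cox4i1, the common form of subunit 4 of cytochrome oxidase, with an SD of 0.050 and a range of 12.38 to 12.60, then Atp5a1, the alpha subunit of the ATP synthase catalytic head (SD 0.051), Cox6c (0.051), Cox7a2 (0.054) and Sdha, the flavoprotein that oxidises succinate (0.055). The medians by complex were 0.096 in complex II, 0.092 in complex III, 0.075 in complex IV and 0.091 in complex V. The most variable members were Cox8b (1.37), Cox6b2 (0.47), Cox4i2 (0.28), Cox7b2 (0.24) and Cox6a2 (0.20), all of them complex IV variants. All of them were also dim, and dim probe sets vary more in general. Cox6a2, at a mean level of 6.89, was close to the median SD of 0.177 in its brightness class. Cox6b2, at a mean level of 6.02, was far above the 0.210 of its class. Cox8b, Cox4i2 and Cox7b2 were too dim to be tested, so no class median stands beside them.

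**Figure D2:**
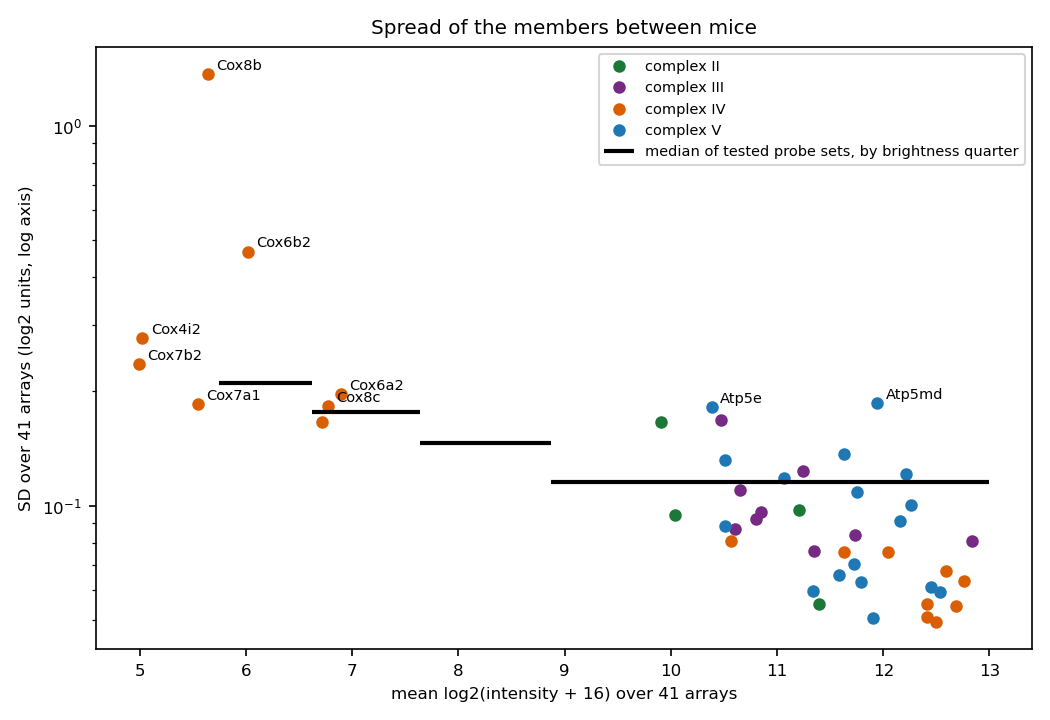
Points are the 47 members, with mean level over 41 arrays on the x axis and SD over the arrays on a log y axis, both in log2(intensity + 16) units, coloured by complex. Black lines are the median SD of all tested probe sets in each of the 4 brightness classes. Most bright members lie under the line of 0.115, and Cox6b2 lies far above its line. Cox8b, too dim to be tested and so in no class, has the largest SD of the members, 1.37.

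High against low mice sets the ends of the cognitive ranking beside each other. No member passed limma's moderated test at an adjusted p of 0.05, where the background was 0.00888% of tested probe sets. At an unadjusted p under 0.05 there were 2 members, Sdhd and Uqcr10, both higher in high mice, or 4.65% of the 43 against 8.16% of all tested probe sets in either direction, 4.58% higher and 3.57% lower. The difference was above 0 for 28 of 43 members, or 65.1% against 52.1%, with a median of 0.034 against 0.0051. By complex, 3 of 4 members of complex II, 7 of 9 of complex III, 8 of 13 of complex IV and 10 of 17 of complex V were above 0. Under 1 other scaling, with arrays set to a common median, the members' median was 0.16 and that of all tested probe sets 0.070, and no member was called. The members' median was 0.013 within batch 2, of 1 high and 2 low arrays, and 0.025 within batch 3, of 4 and 5.

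High against medium mice gave the largest count. No member passed (background 0.0311%), but 8 had an unadjusted p under 0.05, all higher in high mice, or 18.6% against 13.2% of all tested probe sets in either direction, 7.3% higher and 5.9% lower. Of these 2 were in complex II (Sdhd and Sdhb), 3 in complex III (Uqcr10, Uqcrh and Uqcrq), none in complex IV and 3 in complex V (Atp5o, Atp5md and Atp5mpl). The difference was above 0 for 33 of 43 members, 76.7% against 51.9%, with a median of 0.044 against 0.0053, but without normalization between arrays the median was -0.062, beside a shift of -0.17 in all tested probe sets. Array weights, which count noisy arrays less, called Sdhd and Uqcr10 among 354 probe sets, and scaling to a common median called 8 members among 967. No member had classes without overlap (background 0.395%). The members' median was 0.061 within batch 2, of 1 high and 5 medium arrays, and 0.031 within batch 3, of 4 and 5. Several lists of cell type markers lay to one side in the same comparison. Hippocampal neuron markers were split, with 4 of 10 higher in high mice, and so were astrocyte markers, with 4 of 8 higher. Of the astrocyte markers, 2 had an unadjusted limma p under 0.05. Of 7 tested striatum markers, 6 were lower in high mice, 4 of them at an unadjusted p under 0.05, with a median difference of -0.23, and the medium class includes medium 9. All 7 oligodendrocyte markers were lower (median -0.061), all 8 choroid plexus markers were lower (median -0.996) and all 8 microglia markers were higher (median 0.038). Of the GABAergic interneuron markers 6 of 8 were lower, with 3 at an unadjusted p under 0.05. None of these markers passed the adjusted threshold, and their part in the members' shift was not tested. In high mice 26 to 29 of the 43 members lay above their own median over 41 arrays, while medium mice had 10 to 27 and low mice 10 to 29.

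Medium and low mice were closest. No member passed, nor did any of the 22519 probe sets (background 0%), and 1 member, Atp5md, had an unadjusted p under 0.05, lower in medium mice, or 2.33% against 3.1% in either direction, 1.58% higher and 1.52% lower. The difference was above 0 for 10 of 43 members, 23.3% against 49.9%, with a median of -0.026 against -0.00027, and without normalization between arrays the median was 0.077 beside 0.11 in all tested probe sets. Within batches 2 and 3 the members' median was -0.036 and -0.0047. A test for any difference among the 3 classes (limma F) called no member (background 0.00888%) and had 6 at an unadjusted p under 0.05, or 14.0% against 8.61%. A slope over the classes, coded 1 to 3 from low to high, called none (background 0.00444%), with 2 at an unadjusted p under 0.05, or 4.65% against 5.93%. Leaving out the choroid-rich arrays, low 5 and medium 9 together, a choice made after the values were seen, brought the medium and low median to 0.0022.

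**Figure D3:**
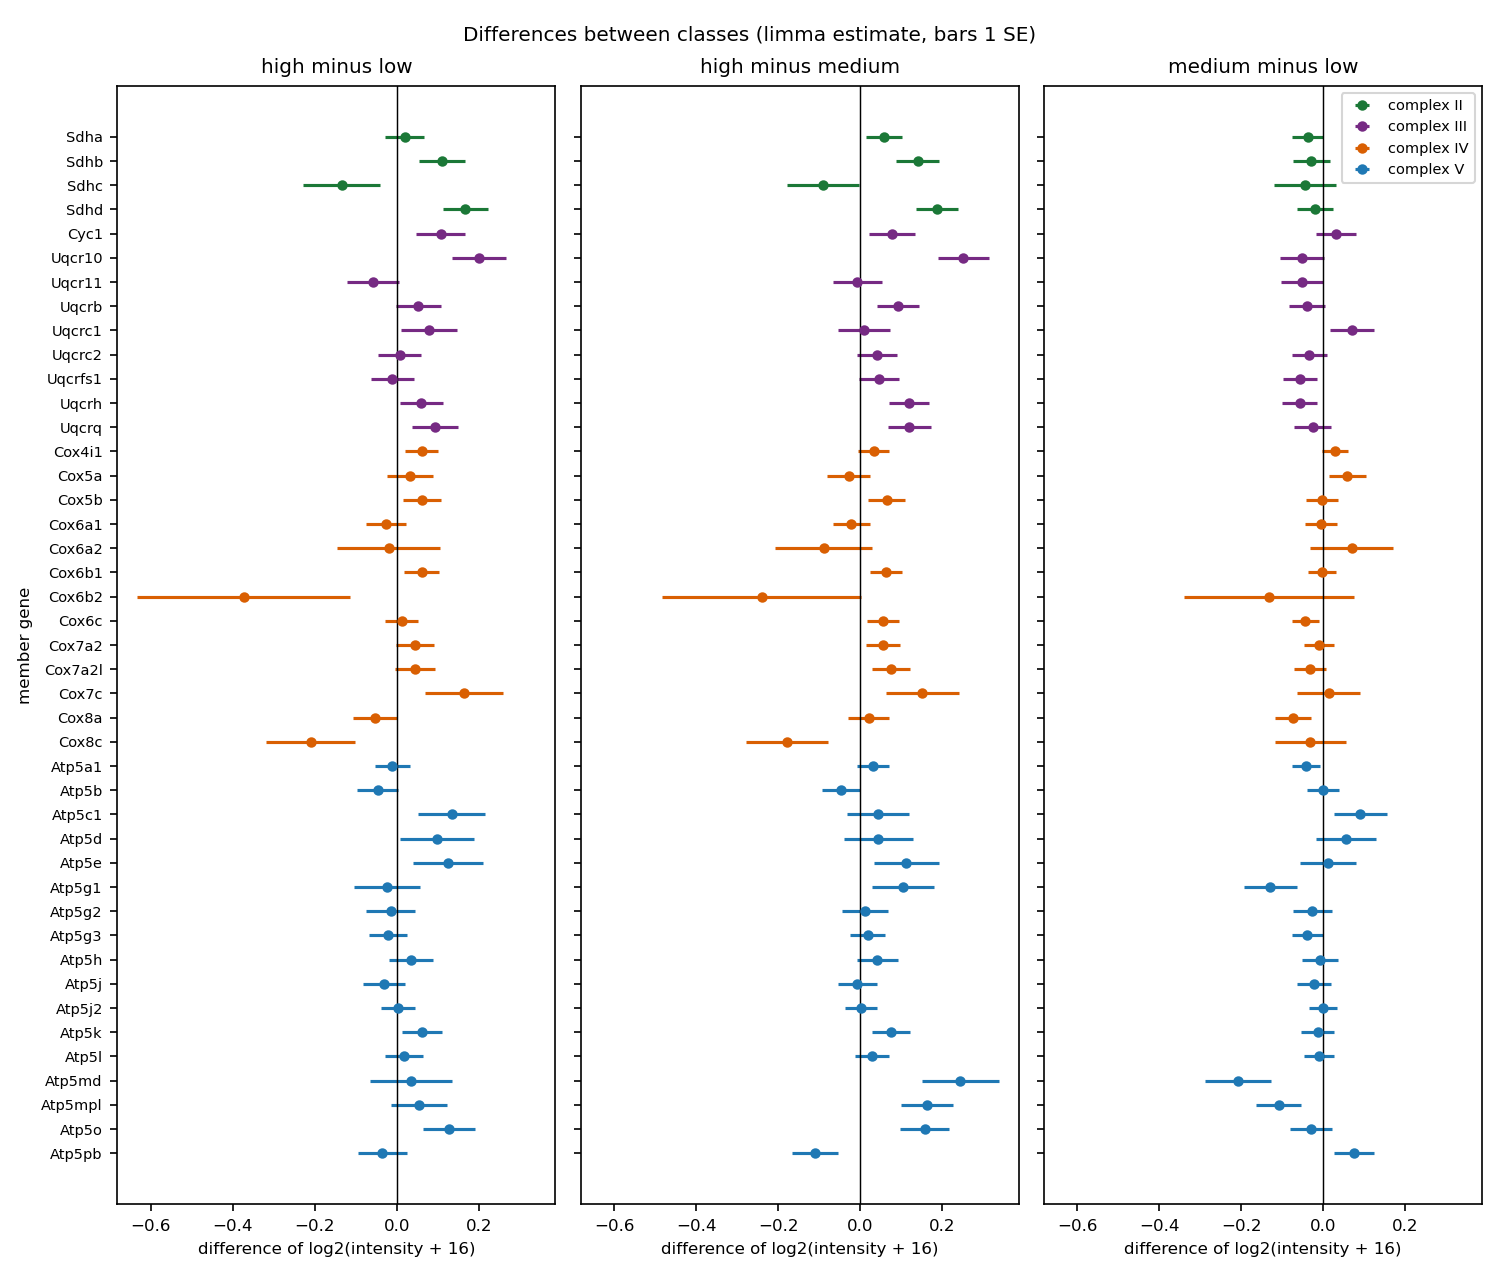
Rows are the 43 tested members, coloured by complex, and the x axis is the limma difference on the log2(intensity + 16) scale with bars of 1 SE, in 3 panels. Points for high minus medium lie mostly right of 0 (33 of 43), and those for medium minus low mostly left of it (10 of 43 above 0).

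Complex II has 2 catalytic subunits and 2 membrane anchors. Sdhd, the anchor that helps bind ubiquinone, was at 10.12, 10.22, 10.19, 10.23 and 10.11 in the high mice. In medium mice its lowest, median and highest levels were 9.76, 9.99 and 10.14, and in low mice 9.90, 10.01 and 10.08. All 5 high mice lay above all 8 low mice, the only member without overlap in that comparison (2.33% of members, background 0.502%), while high and medium mice overlapped at the top of the medium range. The difference was 0.17 ± 0.05 (SE) for high minus low, with a limma adjusted p of 0.490, and 0.19 ± 0.05 for high minus medium, with an adjusted p of 0.152. Within batch 3 alone these differences were 0.18 and 0.21, and with the single high array of batch 2 they were 0.089 and 0.19. In the gene's other tested probe set the high class was the lowest and not the highest. It averaged 7.01 ± 0.15 (SD, n = 5) in the high class, 7.31 ± 0.18 (SD, n = 12) in the medium class and 7.40 ± 0.18 (SD, n = 8) in the low class. It differed by -0.39 ± 0.10 (SE) for high minus low, with an unadjusted limma p of 0.00048 and an adjusted p of 0.435, so the direction for Sdhd rests on the probe set.

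Sdhb, the iron-sulfur subunit, averaged 11.31 ± 0.07 (SD) among high mice, 11.17 ± 0.09 among medium mice and 11.20 ± 0.08 among low mice, and the ranges overlapped. Its high minus medium difference was 0.14 ± 0.05 (SE), with a limma adjusted p of 0.255, and it has no second probe set among those tested. Sdha differed by 0.019 for high minus low and 0.057 for high minus medium. Sdhc, the other anchor, differed by -0.13 and -0.09, and its second probe set by -0.36 and -0.45, again without passing. The 4 differences of this complex thus had no common sign in either comparison with high mice. For medium minus low all 4 were below 0, from -0.044 to -0.021.

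In complex III, Uqcr10, a small supernumerary subunit, was at 10.49, 10.75, 10.70, 10.79 and 10.54 in the high mice. Its lowest, median and highest levels were 10.16, 10.40 and 10.54 among medium mice and 10.33, 10.45 and 10.63 among low mice. High 2, 3 and 4 lay above every medium and low mouse. High 5 lay just above the highest medium mouse and inside the low range, and high 1 lay inside both ranges. The difference was 0.20 ± 0.07 (SE) for high minus low, with a limma adjusted p of 0.515, and 0.25 ± 0.06 for high minus medium, with an adjusted p of 0.124, the smallest of any member. Its other probe sets differed in the same direction, by 0.15 and 0.17 for high minus low and by 0.17 and 0.22 for high minus medium. Inconsistent mice spanned a wider range than any ranked group, from 10.10 to 10.82.

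Uqcrh, the hinge protein at which cytochrome c docks, averaged 11.80 ± 0.08 (SD) among high mice, 11.68 ± 0.06 among medium mice and 11.74 ± 0.09 among low mice. It differed by 0.12 ± 0.05 (SE) for high minus medium (limma adjusted p 0.305), and its second probe set by 0.22 ± 0.06 (adjusted p 0.157). Uqcrq, a ubiquinone-binding subunit, differed by 0.12 for high minus medium. The remaining differences for high minus medium were smaller. They were 0.077 for Cyc1, which encodes cytochrome c1, and 0.045 for Uqcrfs1, the Rieske iron-sulfur protein. The core protein genes Uqcrc1 and Uqcrc2 had 0.0098 and 0.042, and the small subunits Uqcrb and Uqcr11 had 0.093 and -0.0066.

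**Figure D4:**
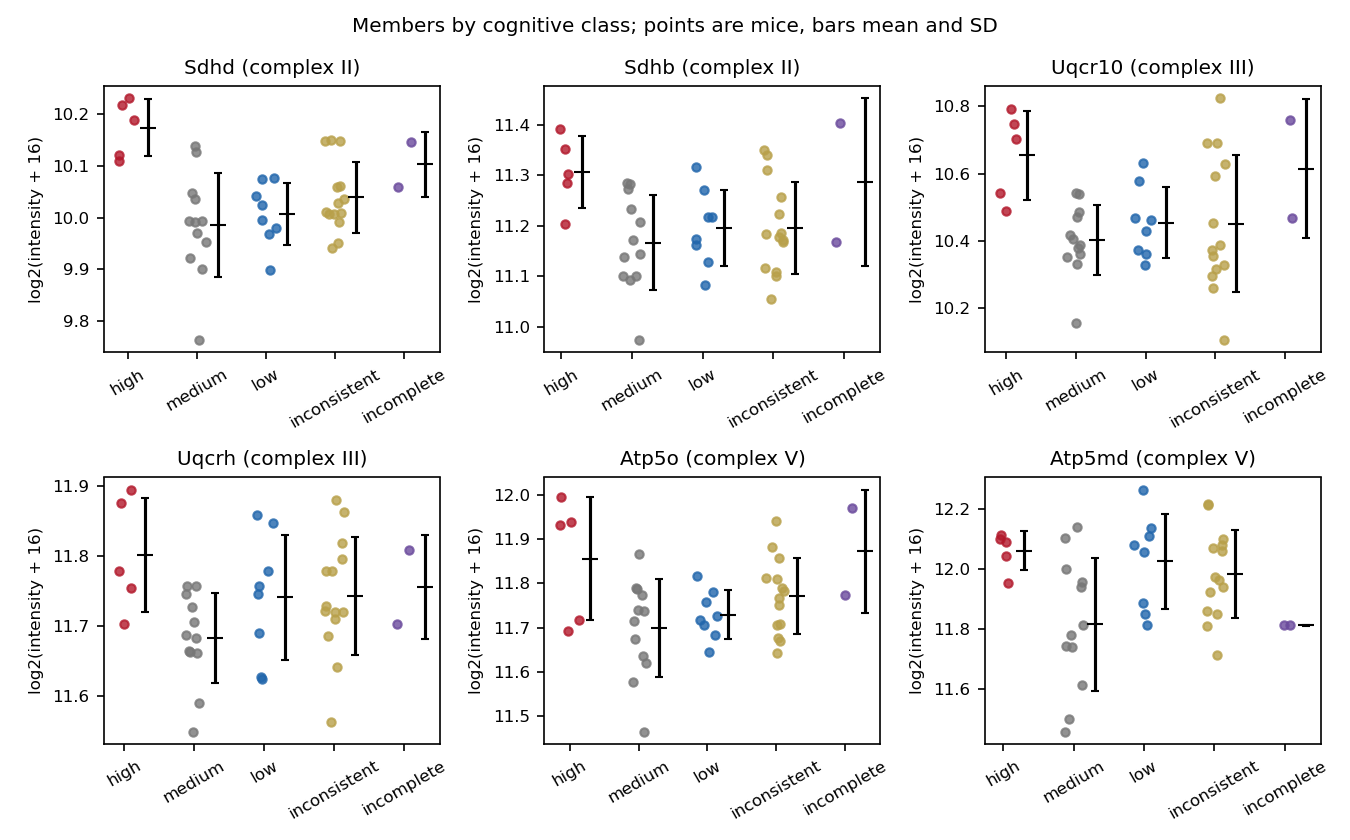
Points are mice, in the order high, medium, low, inconsistent and incomplete, and bars are mean and SD of log2(intensity + 16) for 6 members with a low unadjusted p. High Sdhd points (10.11 to 10.23) lie above all low points (9.90 to 10.08), while the other 5 genes overlap between classes.

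In complex IV none of the 13 tested members had an unadjusted p under 0.05 in any of these comparisons. Its catalytic core is encoded in the mitochondrial genome and is not among the members, and all genes here are supernumerary subunits except Cox7a2l, which helps join complexes III and IV. The tested members with the smallest p for high against low were Cox8c, a variant described in testis, with a difference of -0.21 ± 0.11 (SE), Cox7c with 0.16 ± 0.10 and Cox4i1 with 0.061 ± 0.040. Cox7c was read on a dim probe set, with a mean level of 6.71 over the 41 arrays. Cox7a2l differed by 0.076 for high minus medium, while its other probe sets had the opposite sign, at -0.033 and -0.085. Among the tested members of the complex, Cox8a, Cox6c and Cox5a had the smallest p for medium minus low, at -0.074, -0.044 and 0.059, and the other probe sets of Cox5a gave 0.048 and -0.032. For Cox6c, the high minus low difference was 0.012, but its second probe set gave -0.28 ± 0.09 (SE), with an unadjusted limma p of 0.0048 and an adjusted p of 0.490.

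The variants Cox8b and Cox6b2, known from muscle and heart and from testis, were higher on arrays with bright choroid plexus markers. The mean level of 10 such markers, among them Ttr and Kl, fell into 2 separate sets, from 8.19 to 9.42 on 11 arrays and from 5.69 to 6.99 on the other 30. On the 11 arrays Cox8b lay between 5.88 and 8.64 (median 7.73), and on the 30 between 4.11 and 5.86 (median 4.82). Cox6b2 lay between 6.17 and 7.20 (median 6.77) on the 11, and between 5.49 and 6.11 (median 5.77) on the 30. These were the only members of 47 whose levels did not overlap between the sets. The share of all tested probe sets that did not overlap was not counted, so this count has no background beside it. Cox7a1, at 5.59 to 6.03 and 5.23 to 5.69, overlapped. The medians of Cox7a1 differed by 0.26, and those of the remaining 44 members by -0.20 to 0.13. Arrays were sorted here by the markers and not by the members.

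Within the sets, 94 relations of a member to the marker level were examined by permutation. For Cox6b2 on the 11 arrays, Pearson's r was 0.91 (permutation p 6e-05, adjusted 0.00564) and Spearman's rho 0.88 (p 0.0007, adjusted 0.0658), and r was 0.77 without the 2 arrays farthest from the median. For Cox8b on the 30 arrays r was 0.59 (p 0.00055, adjusted 0.0259) and rho 0.56 (p 0.00166, adjusted 0.0780), with r of 0.52 without 2 arrays. In the opposite sets neither variant passed. Cox8b had an r of 0.76 on the 11 arrays (permutation p 0.0064, adjusted 0.183), which was 0.21 without 2 arrays, and a rho of 0.57 (adjusted 0.610). Cox6b2 had an r of 0.48 on the 30 arrays (permutation p 0.0078, adjusted 0.183), which was 0.31 without 2 arrays, and a rho of 0.44 (adjusted 0.538). Inside batches of 6 or more arrays, Cox6b2 had an r of 0.94 (rho 0.83) on 6 choroid-rich arrays of batch 3. Cox8b had an r of 0.82 (rho 0.55) on 8 and 0.54 (rho 0.50) on 18 other arrays of batches 2 and 3. In the opposite sets, Cox8b had an r of 0.54 (rho 0.77) on the 6 choroid-rich arrays. Cox6b2 had an r of 0.57 (rho 0.19) on the 8 and 0.54 (rho 0.53) on the 18 other arrays. No high array was among the 11, and Cox6b2, at -0.37 ± 0.26 (SE) for high minus low, was at 0.024 without them.

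**Figure D5:**
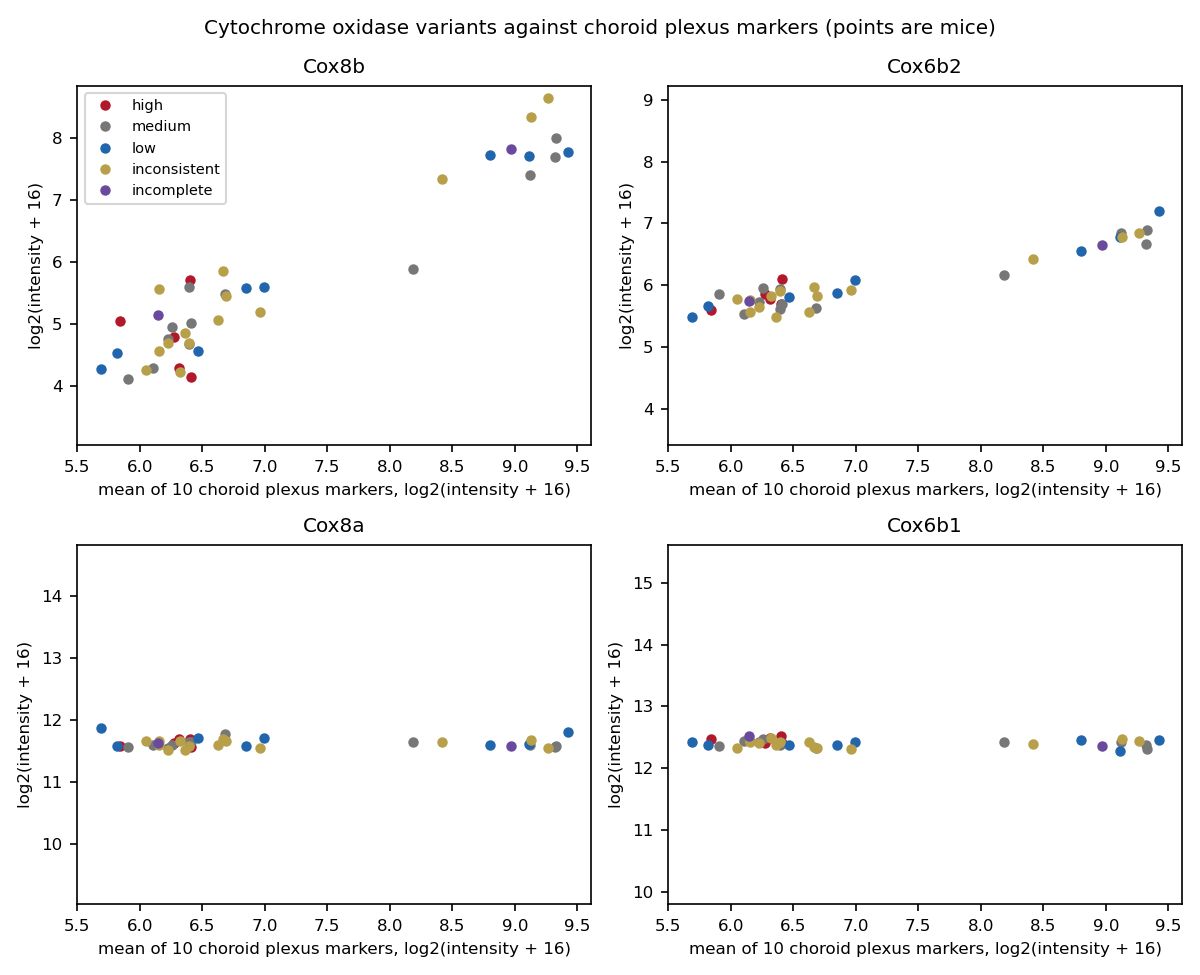
Each panel plots a member's log2(intensity + 16) against the mean level of 10 choroid plexus markers, with mice coloured by class and all y axes of equal span. Cox8b and Cox6b2 are higher on the 11 arrays at 8.19 or more, and their counterparts Cox8a and Cox6b1 stay level.

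The remaining complex IV variants were dim. Cox4i2, a form induced by low oxygen, averaged 5.01 among high mice, 4.98 among medium mice and 5.15 among low mice. Cox7b2 was at 5.02, 4.91 and 5.18 in these classes, with 0.11 for high minus medium, -0.17 for high minus low and -0.27 for medium minus low, none past an adjusted p of 0.05 when dim probe sets were fitted too. The unadjusted limma p for medium minus low was 0.0016 there, and the adjusted p 0.999. Cox6a2, the heart and muscle form of subunit 6a, differed by -0.020 for high minus low, and its common counterpart Cox6a1 by -0.026. The other tested probe set of Cox6a1 went the opposite way, with 0.12 ± 0.05 (SE) for high minus low (unadjusted limma p 0.020, adjusted 0.554) and 0.15 ± 0.05 for high minus medium (unadjusted p 0.0035, adjusted 0.185).

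Complex V joins a catalytic head (Atp5a1, Atp5b, Atp5c1, Atp5d, Atp5e) to a membrane ring and stalks. Atp5md, a small membrane subunit that helps form ATP synthase dimers, was at 12.09, 12.04, 12.11, 12.10 and 11.95 in the high mice. Its lowest, median and highest levels were 11.46, 11.80 and 12.14 among medium mice and 11.81, 12.07 and 12.26 among low mice. The high mice lay near the top of the medium range, and low mice overlapped both. It differed by 0.24 ± 0.09 (SE) for high minus medium (limma adjusted p 0.276) and by -0.21 ± 0.08 for medium minus low (adjusted p 0.998).

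Atp5mpl, another small membrane subunit, differed by 0.16 ± 0.06 for high minus medium, and Atp5o, the stalk subunit named for conferring sensitivity to oligomycin, by 0.16 ± 0.06, with limma adjusted p of 0.282 and 0.264. In Atp5o the high mice split, at 11.94, 11.93 and 12.00 in high 2, 3 and 4 and 11.72 and 11.69 in high 1 and 5, and the gene's second probe set differed by -0.14. The 3 genes for the same c-ring protein, Atp5g1, Atp5g2 and Atp5g3, differed by 0.11, 0.012 and 0.018 for high minus medium and by -0.13, -0.027 and -0.039 for medium minus low. Atp5e, of the head, differed by 0.12 ± 0.09 (SE) for high minus low.

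Low 5, the dimmest array, held extreme levels for members of several complexes. Low 5 held the lowest or the highest level of all 41 arrays for 12 of 47 members, 6 each. Low 7 came next with 8. The share over all probe sets was not counted, so these counts are not a result about the members. The complex IV genes among the 12 were Cox8a, Cox6a1, Cox4i2 and Cox8c (highest) and Cox4i1, Cox5b and Cox6b2 (lowest). Cox6b2 was lowest by very little, at 5.4924 against 5.4929 on the next array. Atp5c1, the gamma subunit that turns inside the head, was at 11.54 on low 5, against 12.07 to 12.34 on the other 40 arrays, and Atp5d, the delta subunit, at 11.02 against 11.49 to 11.89. Uqcrc1 was low at 10.42 and Atp5mpl high at 11.50 on the same array. The second probe set of Atp5d was low there too, at 10.21 against 10.32 to 10.95, while that of Atp5c1 was high. Atp5c1 differed by 0.13 for high minus low with low 5 and by 0.050 without it, and its second probe set by -0.14 with it.

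Other genes of the pathway showed no call either. Of 34 tested subunits of complex I, 19 were above 0 for high minus low and 26 for high minus medium, with medians of 0.013 and 0.038. For 30 assembly factors of complexes II to V these counts were 22 and 23, with medians of 0.065 and 0.055. Of 12 citric acid cycle genes 6 and 6 were above 0, of 12 outer membrane and carrier genes 6 and 6, of 15 regulators of respiratory genes 10 and 8, and of 13 glycolysis genes 4 and 3. The comparisons share their high mice, so these counts are not independent of each other.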

How the data were processed

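The values analysed are linear probe set intensities, as deposited by the authors, from 0.0112 to 13549. Partek and RMA are named, without versions, per the submitters' processing notes, while which step gave linear values is not stated there. Intensities were quantile-normalized over 41 arrays, offset by 16 and put on the log2 scale. Of 45101 probe sets, 64 controls were left out and the 22519 at or above the median mean level were tested. Gene symbols came from the platform annotation, and all 47 members matched the RefSeq gene table by Entrez identifier with 0 changed symbols. Of 92 probe sets of the members, 33 others of 24 genes were also tested.

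Limma 3.58.1 in R 4.3.3 fitted the 25 high, medium and low arrays with 1 mean per class, and p-values were adjusted by Benjamini-Hochberg over all tested probe sets with a threshold of 0.05. The steps were tested on simulated data. Precision is limited by the number of arrays, and each mouse gave 1 array. Batches came from clustering 45 spike-in probe sets, with the number of clusters set at 3 beforehand. The labels give samples numbers within classes: deviations of the 18 same-numbered pairs correlated by -0.17 to 0.14, so the numbers do not pair mice.

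Members and gene lists were chosen with earlier results of these data known. Values were given for all of complexes II and III. In complexes IV and V they were drawn from the 3 smallest p per comparison, the tissue variants and their counterparts, the c-ring genes and the 5 most and least variable members. Not every such value of complexes IV and V is printed. Promoter windows were chosen for printing after the values were seen.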

Additional observations from a re-analysis of the deposited data

Results flagged for a closer look

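In each class of 4 to 10 mice, the sample farthest from its neighbours was set against Dixon's critical value. Of 94 combinations of member and class examined, 9 passed it, and chance flags about 1 in 20. Low 5 accounts for 5 of them: Atp5c1 at 11.54, Atp5d at 11.02 and Uqcrc1 at 10.42 were its low values, and Atp5mpl at 11.50 and Uqcrc2 at 11.57 its high ones. Low 6 was high for Atp5e at 10.64 and for the dim variant Cox7b2 at 5.50. Low 1 was low for Cox6b1 at 12.28. High 2 was low for Cox6a2, at 6.60 against 6.85 for the nearest other high mouse. The part of array brightness in the low 5 values was not tested.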

How the results depend on the processing

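Counts of members past the threshold stayed at 0 in every comparison and setting, except for high against medium and the F test. For high against medium they were 8 after scaling arrays to a common median and 2 with array weights. For the F test the count was 2 after that scaling. The number of all probe sets passing the F test there is not given here, so that count has no background beside it. The members' median difference moved under scaling to 0.158 for high against low and 0.189 for high against medium. Without normalization between arrays it was -0.0624 for high against medium and 0.0767 for medium against low. Without the choroid-rich arrays, low 5 and medium 9, added after seeing the data, medium against low gave 0.00222. The cause of these shifts was not tested. Leaving out 1 array at a time gave medians of 0.0204 to 0.0429 for high against low, 0.0414 to 0.0532 for high against medium and -0.0335 to -0.0142 for medium against low, and counts of 0 throughout. With the sample number as a replicate block the medians were 0.0203, 0.0672 and -0.0311 in the same order and no member was called. Blocking on spike-in batch gave 0.034, 0.044 and -0.016, and within batch 3 alone 0.025, 0.031 and -0.0047. An exact rank-sum test called 0 members and 0 probe sets, with 6, 11 and 1 members at an unadjusted p under 0.05 against 9.13%, 15.5% and 2.96% of all tested probe sets. The smallest p it allows is 0.00155, 0.000323 and 1.59e-05 in these comparisons, too large for a single probe set to pass the adjusted threshold, so its counts of 0 say nothing about stability. Dim members are limited by signal over background.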
